A study of Mus musculus with 3 samples.

Results

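The genes described here carry the leukemia inhibitory factor (LIF) signal of mouse embryonic stem cells (ESCs) from the cell surface to the nucleus, or are switched on by it. They are a list of 9 named genes among the 23953 genes of the deposited tables. They were listed by gene name and not by a rule on their measured values, though earlier results of these data were known. The list holds 4 signal components, *Lifr*, *Il6st*, *Jak1* and *Stat3*, and 5 genes induced by the signal, *Socs3*, *Bcl3*, *Pim1*, *Pim3* and *Gbx2*. RNA-seq was made of 3 libraries of E14 cells, a mouse ESC line, with 1 library per condition. The study compared untreated cells with cells in which the *Oct4* distal enhancer (DE) could be cut out by an inducible Cre recombinase, with or without added *Oct4* from a transgene. The library labelled WT is the reference, and the sources used here do not say whether it came from parental E14 cells or from untreated cells of the engineered line. The library labelled Tam came from *Oct4* DE (−/−) cells, with loxP sites on both sides of the enhancer on both alleles, kept for 48 h with 4-OH tamoxifen to activate CreERT2. The library labelled DoxTam came from such cells given 4-OH tamoxifen and doxycycline for 48 h, doxycycline being the agent that turns on a mouse *Oct4* transgene. The labels give the doxycycline-inducible and the tamoxifen-inducible construct to all 3 libraries, WT included. The engineered lines carried lentiviral rtTA, TRE-mOct4 and CreERT2 and were expanded clonally, and whether WT was such a clone is not stated, so effects of the clone and of the treatment cannot be told apart. All cells grew in serum medium that contained LIF, so the signal was supplied from outside in every condition.

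LIF binds the receptor LIFR, which pairs with gp130, the product of *Il6st* and the shared receptor chain of the IL-6 family of cytokines. JAK kinases bound to the receptor tails, JAK1 foremost in ESCs, then phosphorylate the transcription factor STAT3, which enters the nucleus and activates its targets. In mouse ESCs this route upholds self-renewal. It is switched on by phosphorylation, which RNA levels do not measure. *Socs3* is a rapid target of STAT3 whose product inhibits the receptor and JAK1, and its promoter is known for STAT sites. The core of such a site is TTCNNNGAA, which reads the same on both strands. The sequence before the *Socs3* start site is shown because *Socs3* was the only one of the 9 genes with this core in its promoter window (250 bases before to 50 after the start, RefSeq, GRCm38.p6). The 250 bases before the start, chr11:117969367-117969616 on the minus strand, read 5′ to 3′ as follows, with the core in capitals.
Socs3: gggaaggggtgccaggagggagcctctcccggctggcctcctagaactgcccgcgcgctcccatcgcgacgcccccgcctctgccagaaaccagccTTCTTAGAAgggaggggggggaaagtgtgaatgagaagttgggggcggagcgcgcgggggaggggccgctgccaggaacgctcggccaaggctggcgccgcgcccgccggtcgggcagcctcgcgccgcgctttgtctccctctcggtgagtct

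The capitals cover bases 154 to 146 before the start, and the 250 bases are 71.6% G and C. All 9 genes had a window in the RefSeq table, 11 windows in all. The core occurred in 8.30% of the 32851 windows of all genes, and 9.55% of the 27025 genes had it in a window. Finding it in *Socs3* alone among the 9 is near that share. The narrower form TTCCNGGAA, a subset of this core that also reads the same on both strands, occurred in 1.15% of windows and in none of the 9 genes. A match of letters does not show that STAT3 bound there in these cells, and a window without one says nothing of more distant sites.

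The tables give FPKM, fragments per kilobase of transcript scaled to the fragments of the library, so levels of different genes can be compared within a library. Depth was estimated at 14000000 fragments for WT, 7150000 for Tam and 8280000 for DoxTam. With 1 library per condition there is no replicate check and no p-value, and the 95% intervals given below cover counting error only. Folds are log2((FPKM + 1)/(FPKM + 1)), with 1.5-fold as the limit for calling a gene higher or lower. Measured genes are those that reached 1 FPKM in either of the libraries compared. *Pou5f1*, the gene for Oct4, had 664 FPKM in WT, 529 in Tam and 458 in DoxTam. It thus kept 79.7% of its WT level in Tam and 68.9% in DoxTam, where added *Oct4* was due, and endogenous and transgenic transcripts share 1 row. With levels rescaled to the same total in each library its folds against WT were −0.18 and −0.17, so with that scaling the treated libraries were level. The fold of DoxTam against Tam was −0.21 as deposited and 0.0061 with the same total. With neither scaling did the library labelled DoxTam show a clear rise in *Pou5f1* over Tam, which its label would imply. In the library labelled Tam most of the *Pou5f1* level was still there, so both treated libraries are named by their labels only. All 8 markers of pluripotent stem cells were at 1 FPKM or more in every library, with a summed level of 2764 FPKM in WT, 2519 FPKM in Tam and 2527 FPKM in DoxTam. Single markers went both ways, with *Dppa5a* at 793, 657 and 633 FPKM and *Tdgf1* at 429, 457 and 600 FPKM. The 7 trophectoderm markers summed to 12.7, 16.2 and 12.4 FPKM, and 3, 5 and 3 of them were at 1 FPKM or more. They did not move as one. *Cdx2* was highest in Tam at 0.64, 2.82 and 0.13 FPKM, as were *Gata3* at 0.098, 1.77 and 0.21 FPKM, *Krt7* and *Ascl2*. *Eomes* was highest in DoxTam at 2.91, 4.08 and 5.43 FPKM. *Tfap2c* was highest in WT at 6.55, 4.46 and 3.70 FPKM, as was *Hand1*. The part of such cells in the results below was not tested. The 7 primitive endoderm markers summed to 3.93, 3.74 and 3.72 FPKM, and the 7 fibroblast markers to 5.18, 3.27 and 2.92 FPKM. Most of the fibroblast sum was *Thy1*, at 4.52, 2.27 and 2.63 FPKM, the only one of these 7 at 1 FPKM or more. In such bulk samples fewer cells of a type and less RNA per cell cannot be told apart.

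The 4 signal components were at 91.1% to 111% of their WT level in the treated libraries, while the 5 induced genes were at 62.3% to 87.0%, below WT in both with levels as deposited. All 9 genes were expressed above the median of genes at 1 FPKM or more, which was 10.9 FPKM in WT. *Lifr*, the receptor chain that LIF binds first, was at 31.8 FPKM in WT, 29.0 FPKM in Tam and 35.3 FPKM in DoxTam. *Il6st* followed the same pattern at 36.2, 33.0 and 39.8 FPKM. Both receptor chains were thus lowest in the library labelled Tam and highest in the library labelled DoxTam. The ratio of *Lifr* to *Il6st* was 0.879 in WT, 0.879 in Tam and 0.886 in DoxTam, so their balance was nearly the same in the 3 libraries. *Jak1*, the kinase, had the lowest level of the 9 in each library, at 16.4, 16.2 and 16.6 FPKM. *Stat3*, the transcription factor, was at 29.1, 26.8 and 29.9 FPKM. The intervals of *Jak1* overlapped in the 3 libraries, and those of *Stat3* in WT overlapped with both treated libraries.

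Among the induced genes *Pim3*, a serine/threonine kinase that favours survival and self-renewal, had the highest level of the 9 in every library, at 153 FPKM in WT, 96.2 FPKM in Tam and 106 FPKM in DoxTam. *Socs3* came next in each library, at 75.4, 60.6 and 58.3 FPKM. *Pim1*, a kinase of the same family, was at 65.2, 46.1 and 41.7 FPKM. These 3 kept the first 3 places in the order of levels in every library. *Bcl3*, an atypical IκB protein that acts with NF-κB subunits in the nucleus, was at 36.7 FPKM in WT, 28.2 FPKM in Tam and 24.4 FPKM in DoxTam. *Gbx2*, a homeobox factor able to sustain self-renewal when LIF is withdrawn, was at 33.0, 20.6 and 28.7 FPKM. For all 5 induced genes the WT interval lay above both treated intervals. *Gbx2* also had a Tam interval (19.0 to 22.3 FPKM) well below its DoxTam interval (26.9 to 30.6 FPKM). In WT the order from high to low was *Pim3*, *Socs3*, *Pim1*, *Bcl3*, *Il6st*, *Gbx2*, *Lifr*, *Stat3* and *Jak1*, and the neighbours *Bcl3* and *Il6st*, and *Gbx2* and *Lifr*, could not be told apart by their intervals. In Tam *Gbx2* had moved to the last place but one, above *Jak1*. In DoxTam *Bcl3* had that place, with an interval that overlapped that of *Gbx2* just above it.

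**Figure D1:**
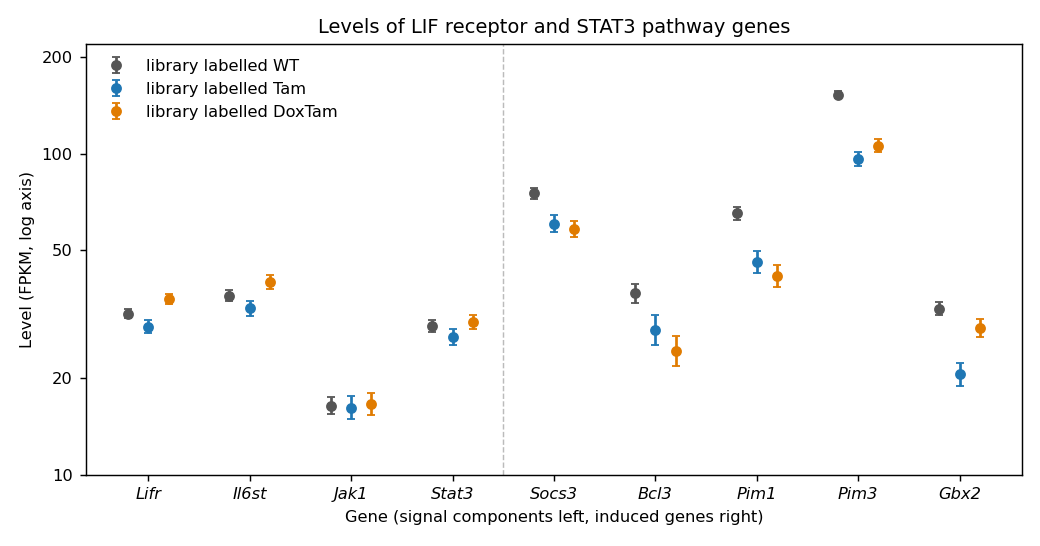
Level of each gene in FPKM on a log axis, 1 point for each library (WT grey, Tam blue, DoxTam orange), with signal components left of the dashed line and induced genes right of it. Bars are 95% counting intervals and do not include variation between cultures. *Pim3* is at 153 FPKM in WT and at 96.2 and 106 FPKM in the treated libraries, while *Jak1* is at 16.4, 16.2 and 16.6 FPKM.

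Comparing the library labelled Tam with WT was meant to ask what changed when the enhancer was deleted without added *Oct4*. All 9 genes had a fold below 0 with levels as deposited, as did 6014 of all 12705 genes measured. The median of the 9 was −0.31 against 0.02 over all genes measured. The 5 induced genes had a fold below 0 with every scaling tried, while the 4 components lay above 0 with the same total. The 5 induced genes had a median fold of −0.49 and the 4 components one of −0.12, and the latter turned to 0.02 when levels were rescaled to the same total in each library, a step that took the median of all genes to 0.15. *Pim3* was at 62.9% of its WT level, a fold of −0.66 (counting interval −0.75 to −0.58). *Gbx2* was at 62.3%, also a fold of −0.66 (−0.78 to −0.53). These were the only 2 of the 9 genes past 1.5-fold, and none was 1.5-fold higher. Over all genes 3.59% were 1.5-fold lower and 6.98% were 1.5-fold higher. Both calls ended with the same total, where the fold of each was −0.52 and 2.14% of all genes were 1.5-fold lower and 10.8% higher. With small RNA genes left out of that total both calls stayed, at −0.67 for *Pim3* and −0.66 for *Gbx2*. The share of all genes was not worked out for that scaling. Below 1.5-fold, *Pim1* had a fold of −0.49 (−0.63 to −0.36), *Bcl3* one of −0.37 (−0.54 to −0.19) and *Socs3* one of −0.31 (−0.41 to −0.21). The receptor chains *Lifr* and *Il6st* both had a fold of −0.13, *Stat3* one of −0.11 and *Jak1* one of −0.02. The interval of *Jak1*, −0.16 to 0.12, included 0.

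Comparing the library labelled DoxTam with WT asks what remained when *Oct4* was to be supplied from the transgene. The 5 induced genes had folds below 0, with a median of −0.52, and the 4 components had folds above 0, with a median of 0.09, though *Gbx2* lay above 0 with the same total and *Lifr* and *Jak1* lay below 0 with the trend by GC content removed. Over all 9 genes the median was −0.19 against −0.0028 over the 12384 genes measured, of which 6226 had a fold below 0. With the same total these medians were 0.16 and 0.32. The median of the induced genes lay below that of all genes with both scalings, at −0.52 and −0.17. That of the components lay above it with both, at 0.09 and 0.44. With the GC trend removed the median of the 9 was −0.07, beside −0.0016 over all genes with a GC value. *Pim1* was at 63.9% of WT, a fold of −0.63 (−0.77 to −0.50), and was the only one of the 9 genes past 1.5-fold. Over all genes 5.78% were 1.5-fold lower and 4.12% were 1.5-fold higher. With the same total *Pim1* came to −0.28, inside the limit, where 1.79% of all genes were lower and 22.1% higher. With small RNA genes left out of that total *Pim1* stayed past the limit at −0.63, a scaling for which the share of all genes was not worked out. *Bcl3* lay just inside that limit with a fold of −0.57 (−0.75 to −0.40), as did *Pim3* with −0.52 (−0.60 to −0.45). *Socs3* had a fold of −0.36 (−0.46 to −0.26), which came to −0.0081 with the same total. *Gbx2* had the smallest difference of the induced genes, a fold of −0.19 (−0.30 to −0.09), which came to 0.16 with the same total. *Lifr* had a fold of 0.15 (0.08 to 0.21) and *Il6st* one of 0.14 (0.05 to 0.22). The intervals of *Stat3* (−0.05 to 0.13) and *Jak1* (−0.12 to 0.15) included 0. Both comparisons rest on the same WT library, so they are not independent of each other.

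**Figure D2:**
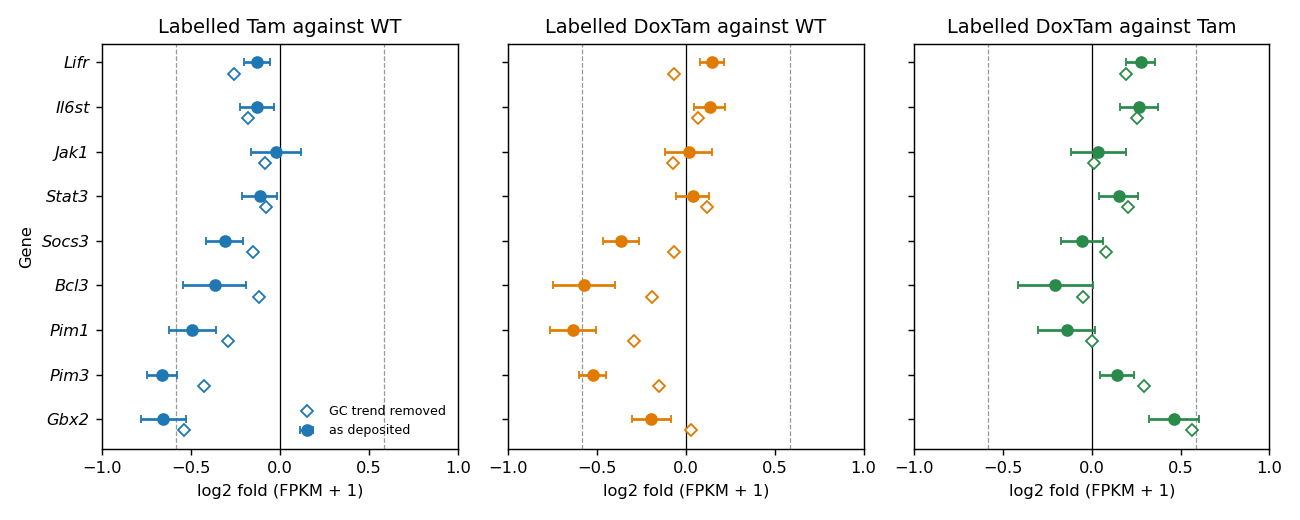
Log2 fold of the 9 genes in 3 comparisons (Tam against WT, DoxTam against WT, DoxTam against Tam). Filled points with bars are levels as deposited with 95% counting intervals, open diamonds are the same folds with the trend by GC content removed, and dashed lines mark 1.5-fold. Filled points of *Pim3* and *Gbx2* pass the line in Tam (both −0.66) and that of *Pim1* passes it in DoxTam (−0.63), while no diamond does.

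The treated libraries differ from each other by doxycycline, by their labels, and this comparison leaves WT aside. *Gbx2* had the largest difference of the 9 genes, 20.6 FPKM in Tam and 28.7 FPKM in DoxTam, a fold of 0.46 (0.32 to 0.60). It did not reach 1.5-fold with levels as deposited, and passed it with the same total (0.67), where 6.02% of all genes were 1.5-fold higher and 4.1% lower. *Lifr* had a fold of 0.28 (0.20 to 0.36), *Il6st* one of 0.27 (0.16 to 0.37), *Stat3* one of 0.15 (0.04 to 0.26) and *Pim3* one of 0.14 (0.04 to 0.24), all higher in the library labelled DoxTam in each of the 6 alternatives that altered these values. *Jak1* at 0.04, *Socs3* at −0.05, *Pim1* at −0.14 and *Bcl3* at −0.20 had intervals that included 0. None of the 9 genes passed 1.5-fold in either direction, where 2.09% of the 12647 genes measured were higher and 5.74% lower. Their median was 0.14, against −0.02 over all genes.

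Ratios within a library do not depend on how libraries are scaled, and they set each induced gene against *Stat3*. *Pim1* was 2.24 times the level of *Stat3* in WT, 1.72 times in Tam and 1.39 times in DoxTam. *Bcl3* was 1.26, 1.05 and 0.816 times *Stat3*, and *Socs3* 2.59, 2.26 and 1.95 times. These 3 genes had their lowest ratio in the library labelled DoxTam. *Pim3* was 5.26 times the level of *Stat3* in WT and 3.59 and 3.55 times in Tam and DoxTam. *Gbx2* was 1.13, 0.767 and 0.960 times *Stat3*, with the lowest ratio in Tam. All 5 ratios were thus lower in both treated libraries than in WT. Among the components the ratio to *Stat3* ranged from 0.556 to 0.603 for *Jak1*, from 1.08 to 1.18 for *Lifr* and from 1.23 to 1.33 for *Il6st*. The median fold of the induced genes minus that of the components was −0.37 in Tam against WT, −0.61 in DoxTam against WT and −0.26 in DoxTam against Tam.

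GC content moved with this contrast. Transcripts of the induced genes had a median GC content of 60.6%, those of the components 48.0% and those of all genes measured 50.7%. When genes were put in 10 bins by GC content, the median fold over all genes went from 0.24 in the lowest bin to −0.19 in the highest in Tam against WT, and from 0.34 to −0.34 in DoxTam against WT. With this trend removed, the induced genes minus the components came to −0.16 in Tam and −0.15 in DoxTam, and none of the 9 genes passed 1.5-fold. Over all genes with a GC value 2.26% were then lower and 5.31% higher in Tam, 2.17% lower and 2.07% higher in DoxTam, and 4.45% lower and 1.61% higher in DoxTam against Tam. In Tam *Gbx2* kept a fold of −0.54 and *Pim3* one of −0.43, followed by *Pim1* at −0.29, *Lifr* at −0.26, *Il6st* at −0.18, *Socs3* at −0.15 and *Bcl3* at −0.12. In DoxTam *Pim1* kept −0.29, *Bcl3* −0.19 and *Pim3* −0.15, while *Socs3*, *Lifr* and *Jak1* came to −0.07 and *Gbx2* to 0.03. *Gbx2* in Tam was therefore the gene least altered by this step among the 3 that had passed 1.5-fold, and its difference between the treated libraries was 0.57 with the trend removed. GC content of these genes cannot be told apart from their membership of the induced group.

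**Figure D3:**
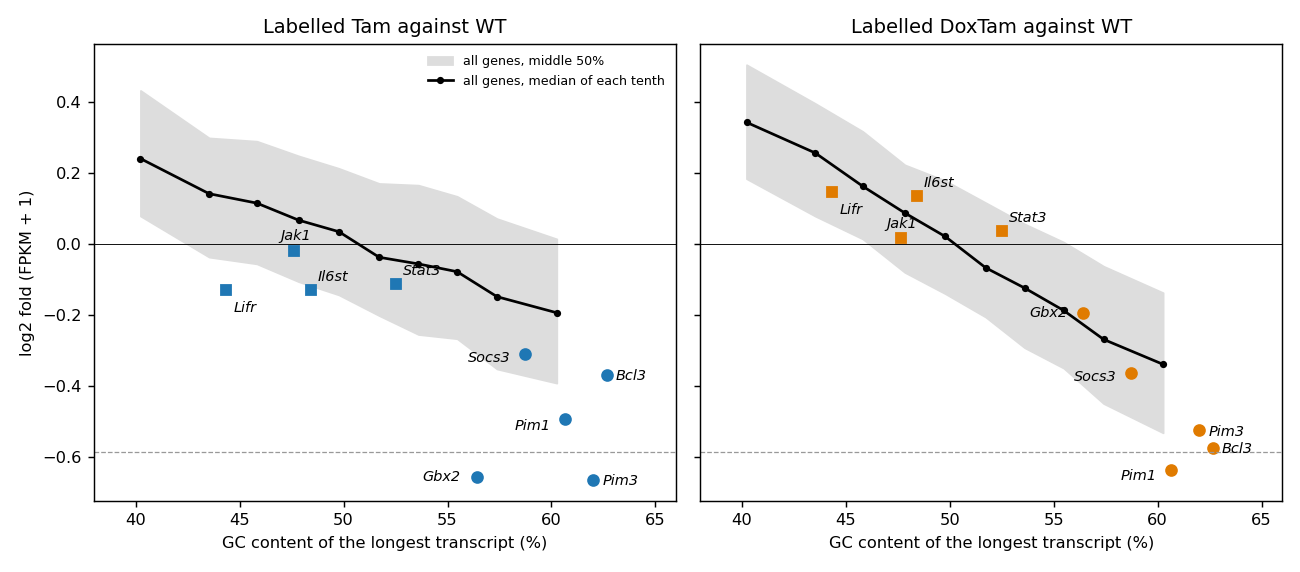
Log2 fold against the GC content (%) of the longest transcript, for Tam and DoxTam against WT. The black line joins the medians of 10 bins of all genes by GC, the grey band holds the middle 50% of genes, squares are components, circles are induced genes, and the dashed line marks 1.5-fold. The line goes from 0.24 to −0.19 in Tam and from 0.34 to −0.34 in DoxTam, with the 5 induced genes on the side of high GC.

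Exons of 5 of the 9 genes overlap a gene on the other strand in the annotation of the build used, *Jak1* with *Raver2*, *Stat3* with *Stat5a*, *Bcl3* with *Gm16175*, *Pim1* with *Gm16912* and *Gbx2* with *D130058E05Rik*. The libraries were made with a stranded kit, but no source used here says whether counting used the strand, so levels of these 5 genes could hold reads of their neighbours. *Lifr* (chr15:7079572-7147489, mm9), *Il6st* (chr13:113254278-113297068), *Socs3* (chr11:117827401-117830680) and *Pim3* (chr15:88692624-88696156) had no such overlap. The remaining loci in mm9 are chr4:100741643-100937887 for *Jak1*, chr11:100748124-100800825 for *Stat3*, chr7:20393811-20408104 for *Bcl3*, chr17:29627990-29632404 for *Pim1* and chr1:91824537-91827751 for *Gbx2*.

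Beyond the 9 genes, 76 further genes of the pathway were taken by their textbook roles, of which 66 could be measured against WT. In Tam 4 of them were 1.5-fold higher and 3 lower, beside 6.98% and 3.59% of all genes. In DoxTam 3 were higher and 1 lower, beside 4.12% and 5.78% of all genes. With levels rescaled to the same total, these counts became 7 higher and 2 lower in Tam and 15 higher and 1 lower in DoxTam. That step raises the folds of all genes alike, to 10.8% and 22.1% of all genes higher, and the median of the 66 genes came to 0.14 in Tam and 0.23 in DoxTam beside 0.15 and 0.32 over all genes. Ligands of the gp130 family were hardly expressed, with 5 of 10 measured. *Lif* itself was at 1.14 FPKM in WT, 2.29 FPKM in Tam and 1.29 FPKM in DoxTam, a fold of 0.62 in Tam. *Cntf*, ciliary neurotrophic factor, was at 1.11, 4.47 and 3.38 FPKM, with folds of 1.37 and 1.05. *Clcf1*, a ligand that acts through this receptor pair together with the CNTF receptor, was at 1.38, 1.33 and 0.40 FPKM, with a fold of −0.76 in DoxTam. At these depths levels near 1 FPKM rest on few fragments. Of the 8 other receptors of the family 4 were measured and none passed 1.5-fold against WT. *Osmr*, the oncostatin M receptor chain, was at 0.095, 0.056 and 0.10 FPKM, far below *Lifr*. Between the treated libraries *Il6ra*, the IL-6 binding chain, was at 4.00 FPKM in Tam and 2.29 FPKM in DoxTam, a fold of −0.61, and was named after its values were seen.

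None of the 9 other JAK and STAT genes passed 1.5-fold in either comparison with WT, with medians of −0.04 in Tam and −0.13 in DoxTam. The nearest to the limit was *Stat4*, at 3.38, 1.95 and 3.08 FPKM, with a fold of −0.57 in Tam that passed it with the GC trend removed (−0.68). *Stat4* was named after its values were seen. *Jak1* was the best expressed of the JAK genes in each library, though *Jak3* came close at 15.7, 15.2 and 12.1 FPKM, and *Jak2* was at 1.95, 2.51 and 3.10 FPKM. *Stat3* was higher than each of the other STAT genes, of which *Stat2* had the highest WT level, 10.9 FPKM. Of 14 inhibitors of the pathway none passed in Tam, and *Socs2* and *Socs4* were higher in DoxTam. *Socs2*, at 14.0, 18.2 and 23.9 FPKM, had a fold of 0.73 there, and *Socs4*, at 8.06, 9.06 and 13.3 FPKM, one of 0.66. Both were above WT where *Socs3* was below it, and with the GC trend removed they came to 0.56 and 0.27, inside the limit. The median of the inhibitors was 0.04 in Tam and −0.06 in DoxTam.

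Other genes that follow LIF and STAT3 in ESCs went both ways. Of 13 measured, 2 were 1.5-fold higher and 2 lower in Tam, where 6.98% of all genes were higher and 3.59% lower. None passed in DoxTam, where 4.12% of all genes were higher and 5.78% lower. *Myc*, a growth regulator, was at 37.1 FPKM in WT, 21.1 FPKM in Tam and 27.5 FPKM in DoxTam, with a fold of −0.79 in Tam. *Junb*, an AP-1 subunit, was at 44.0, 28.5 and 37.2 FPKM, with a fold of −0.61 in Tam. Like *Gbx2* and *Pim3*, *Myc* and *Junb* were lowest in Tam, intermediate in DoxTam and highest in WT with levels as deposited. With the GC trend removed *Myc* kept its order, while *Junb* came to −0.36 in Tam, inside the limit, and to 0.15 in DoxTam, above WT. *Tfcp2l1*, a factor that sustains ESC self-renewal downstream of STAT3, had the reverse order at 90.7, 139 and 118 FPKM, with a fold of 0.61 in Tam. It had no GC value, so removal of the GC trend could not be applied to it. *Fos*, an immediate early gene, was at 3.19, 5.30 and 2.04 FPKM, with a fold of 0.59 in Tam against WT and of −1.05 in DoxTam against Tam. *Klf4*, a Krüppel-like factor on the LIF route, was at 175, 160 and 150 FPKM, and *Klf5* at 395, 302 and 334 FPKM, neither past 1.5-fold. The median of these genes was −0.07 in Tam and −0.20 in DoxTam.

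The PI3K and MAPK arms, which LIF also activates, held 15 measured genes, none past 1.5-fold against WT, with medians of −0.01 and −0.03. *Tbx3*, tied to the PI3K arm, was at 85.8, 83.3 and 74.1 FPKM. *Klf2* was at 104, 106 and 104 FPKM. Among 6 relatives of the induced genes 1 was 1.5-fold lower in Tam, where 3.59% of all genes were lower and 6.98% higher. It was *Gbx1*, the paralog of *Gbx2*, at 1.75, 0.50 and 0.90 FPKM, a fold of −0.88 in Tam and of −0.66 with the GC trend removed. Levels this low rest on few fragments. *Pim2*, the remaining Pim kinase, was at 4.35, 3.15 and 3.42 FPKM, far below *Pim1* and *Pim3*. The median of the 6 relatives was −0.18 in Tam and −0.31 in DoxTam, and it came to −0.06 and −0.02 with the same total, both below the medians of all genes.

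**Figure D4:**
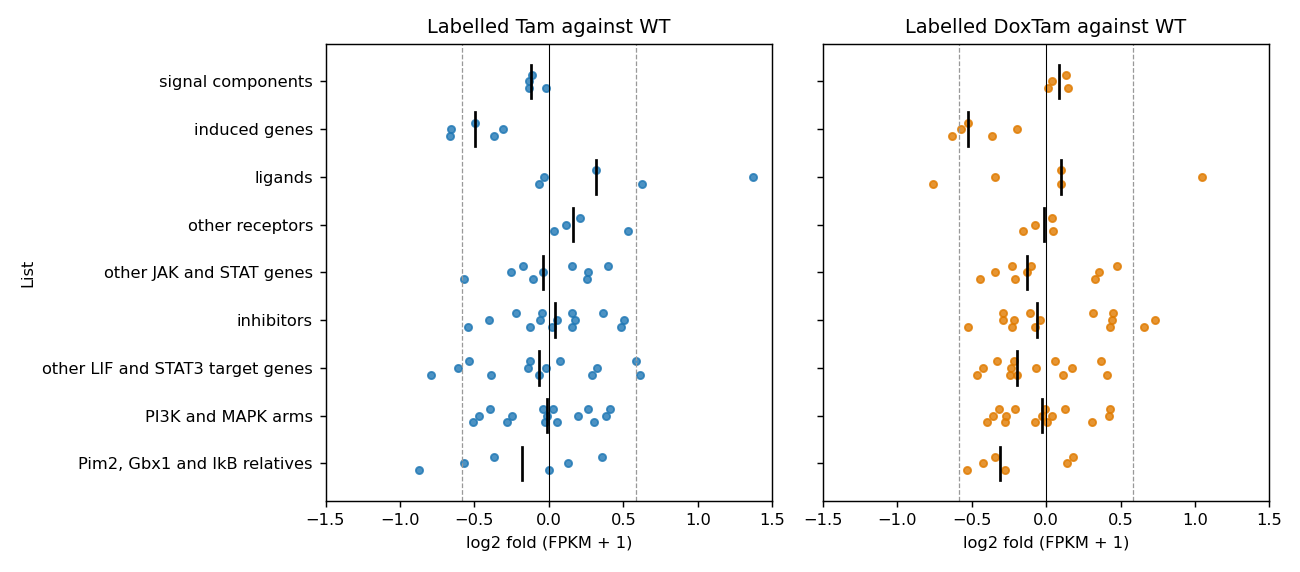
Log2 fold against WT of each measured gene by list, for Tam (left) and DoxTam (right). Each point is a gene, black bars are medians, and dashed lines mark 1.5-fold. The bar of the induced genes is at −0.49 in Tam and −0.52 in DoxTam, while that of the signal components is at −0.12 and 0.09.

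Likeness in fold was looked at for *Lifr*, *Stat3* and *Socs3* alone. Over 8090 genes at 5 FPKM or more in WT, the nearest to *Lifr* by distance in the 2 folds against WT were *Uhrf2*, *Dnaaf2* and *Gtf2h2*, and 297 genes lay within 0.1. The nearest to *Stat3* were *Kif2c*, *Sec11c* and *Rps6ka2*, with 509 genes within 0.1. The nearest to *Socs3* were *Fkbp2*, *Cabin1* and *Pif1*, with 326 genes within 0.1. Each likeness rests on 3 libraries.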

How the data were processed

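RNA-seq of 3 E14 libraries was analysed, grouped by their labels. The authors deposited FPKM values in 2 gene tables, each setting a treated library beside WT, made with TopHat, Bowtie and Cufflinks 2.0.0 on mm9, by the submitters' processing notes. The annotation and strand setting are not given in the sources used here. The deposited log2 fold, test statistic, p-value, q-value and significance columns hold the authors' own comparisons and were not used. The WT level of 2 genes differed by over 1% from 1 table to the other, so levels were set side by side across both. No per-sample column was left without a library.

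Folds used a pseudocount of 1 FPKM, and a gene counted as measured where either library of the pair reached 1 FPKM. Depth was estimated from whole-fragment steps in low levels of genes with a single transcript, taking 200 bases off the length. With 150 or 250 bases it was 13700000 or 14700000 fragments for WT, 7010000 or 7330000 for Tam, and 8160000 or 8440000 for DoxTam. In WT 63.9% of the values used lay within 0.2 of a whole fragment, in Tam 75.1% and in DoxTam 76.5%, so counting intervals are approximate. GC content came from the longest GENCODE transcript of mm9, for 88.9% to 89.2% of measured genes, and its trend was removed with lowess (span 0.2). Python 3.11.15, pandas 2.3.3, NumPy 2.4.6, statsmodels 0.14.6 and matplotlib 3.10.9 were used, and the steps were tested on simulated data. Promoter windows came from RefSeq (GRCm38.p6), whose coordinates are not those of mm9. Protein sequences were not analysed here.

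The 9 genes, the wider lists and the alternatives were chosen with earlier results of these data known. Named genes were the 9 members, up to 3 highest and 3 lowest per wider list past 1.5-fold, the 3 genes nearest in fold to *Lifr*, *Stat3* and *Socs3*, and *Pou5f1*. Other genes were named by role or after their values were seen. Alternatives were pseudocounts of 0.1 and 5 FPKM, no filter, a 5 FPKM filter, removal of the GC trend, folds centred on their median, levels rescaled to the same total with and without 1203 small RNA genes, and limits of 2-fold and of 0.32 on the log2 scale. The difference between induced genes and components was added after seeing the data.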

Additional observations from a re-analysis of the deposited data

How the results depend on the processing

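No paired analysis was possible because each condition has 1 library. Rescaling to the same total shifted the median fold of all genes by 0.127 in Tam, 0.320 in DoxTam and 0.194 between the treated libraries, a shift that came down to −0.0051, 0.0072 and 0.013 with small RNA genes left out of the total. *Mir6236* alone held 43.1% of the summed FPKM in WT, 35.3% in Tam and 27.4% in DoxTam. *Pim1*, *Pim3*, *Bcl3* and *Socs3* were below 0 against WT in both comparisons in the 6 alternatives that altered the fold of a member, and *Gbx2* in 6 in Tam and 4 in DoxTam. *Socs3* in DoxTam was level with WT with the same total, at −0.0081, and at −0.07 with the GC trend removed. The components were below 0 in Tam in 5 of the 6. With the same total, the members had 0 lower in Tam and 0 in DoxTam, medians of −0.17, 0.16 and, between the treated libraries, 0.35, and 1 past 1.5-fold there, while the wider lists had 7 higher in Tam, 15 in DoxTam and 2 between the treated libraries. With small RNA genes left out of the total, 2 members were lower in Tam and 1 in DoxTam, as with levels as deposited. With the GC trend removed, 0 members were lower in either comparison, with medians of −0.18 and −0.068, the induced genes minus the components came to −0.16, −0.15 and −0.12, and 1 wider gene was higher in DoxTam. At a limit of 0.32 (log2) 4 members were lower in Tam, 4 in DoxTam and 1 differed between the treated libraries, and the wider lists had 12 higher and 13 lower, 13 and 13, and 5 and 8. The share of all genes was not worked out at this limit, at 2-fold, for the total without small RNA genes, or for the pseudocounts, filter and centring below. Counts under those settings therefore cannot be read against all genes. At 2-fold 0 members passed, and the wider lists had 1 higher and 0 lower in Tam, 1 and 0 in DoxTam, and 1 lower between the treated libraries. A pseudocount of 0.1 gave 2 lower members in DoxTam (*Bcl3* at −0.59) and 7 lower wider genes in Tam, 5 in DoxTam and 1 higher between the treated libraries. A pseudocount of 5 gave 1 lower member in Tam (*Gbx2* at −0.57 fell short), with 2 higher and 1 lower wider genes in Tam, 1 and 0 in DoxTam and 0 lower between the treated libraries. A 5 FPKM filter gave 2 higher wider genes in Tam, 0 lower in DoxTam and 1 lower between the treated libraries, and centring gave 5 lower in Tam. The other 123 summary values stayed close to those reported. Some of them could not differ, since the limit for a call does not enter a median and neither filter setting removed a member. The cause of these changes was not tested beyond what each alternative is built on.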
